A study of Mus musculus with 2 samples.

Results

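The Slit ligands and Robo receptors were examined as a family of 6 genes (Slit1, Slit2, Slit3, Robo1, Robo2 and Robo3), taken by gene symbol from the 32285 genes of the tables, and all 6 were found. The data were single-cell transcriptomes of the dorsal telencephalon, the embryonic wall that forms the cortex, from mouse embryos at E14.5 (embryonic day 14.5). Both libraries, called replicate 2 and replicate 4 after the last digits of their titles, carried the genotype WT and the line name EomesDot, were described as control animals of the Eomes-Cre line, had no treatment and were given the tissue label brain hemispheres. The study describes C57BL/6J embryos and separately loaded samples, while the labels state neither how the 2 strain names relate, nor whether the WT animals carried the Cre allele, nor how many embryos went into a library. With 1 group, the comparisons were between cell classes.

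Slits are large secreted proteins that bind the immunoglobulin domains of Robo receptors, and the receptor then acts on the actin cytoskeleton through srGAP, Abl, Ena and Pak proteins, usually so that a growing axon or a migrating neuron turns away. In the embryonic telencephalon the pair is known for keeping axon tracts and migrating interneurons on their routes, and Robo signalling in radial glial cells (RGCs) is known to bear on how many intermediate progenitor cells (IPCs) are made. Robo3 is the divergent receptor: in mammals it binds Slits poorly and binds the secreted protein Nell2.

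In the GRCm38 annotation of RefSeq (the build also called mm10, which the submitters used), 5 of the 6 genes spanned more than 100 kb. Slit1 lay at chr19:41597824-41747275, Slit2 at chr5:47981291-48307735 and Slit3 at chr11:35121456-35708507. The receptors Robo1 and Robo2 were neighbours on chromosome 16, at chr16:72027518-73047491 and chr16:73891976-75447443. Robo3, at chr9:37416045-37433436, was the short gene of the family with 17.4 kb. Promoter windows of 150 bases before RefSeq start sites were searched on both strands for CAGATG and CAGCTG, the E-box letters that proneural bHLH factors read, and for TAATTA, a homeodomain core (CAGCTG and TAATTA read the same on both strands, and no motif is part of another). The windows of Slit2 and of 1 of 3 Robo2 starts are shown, a ligand and a receptor, because they were the only ones of the family's 7 windows that did not share 20 bases with an annotated transcript of their gene. Both windows lie inside the spans given above, downstream of the first base of the gene, so they are not those of the outermost starts. Capitals mark the only match.
Slit2 (chr5:47983005-47983154, + strand): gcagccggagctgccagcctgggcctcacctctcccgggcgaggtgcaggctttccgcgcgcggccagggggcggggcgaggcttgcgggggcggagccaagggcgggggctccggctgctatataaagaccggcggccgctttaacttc
Robo2 (chr16:74411826-74411975, − strand): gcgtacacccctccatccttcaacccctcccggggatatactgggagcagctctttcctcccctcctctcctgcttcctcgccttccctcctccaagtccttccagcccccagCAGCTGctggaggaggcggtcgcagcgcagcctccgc
The Slit2 window, with 73.3% G or C against a median of 54.0% over 32851 promoter windows, held none of the 3 motifs. The Robo2 window held CAGCTG 37 bases before the start, a motif found in 8.39% of all windows. CAGATG occurred in 8.81% of all windows and TAATTA in 2.73%, and among the family's 7 windows the latter was found once, 101 bases before the Robo3 start. UMIs (molecular tags, each marking 1 captured transcript) were counted per gene, so the starts of a gene could not be told apart.

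The tables held 4301 barcodes, of which 1199 cells of replicate 2 (median 30810 UMIs) and 1923 cells of replicate 4 (median 22826 UMIs) were retained, and 1 barcode sequence was shared between the retained sets. Clusters were named from marker genes, without the 6 genes or their pathway among the clustering genes. The 7 classes that reached 10 cells in both libraries were RGC-like cells (274 and 495 cells in replicates 2 and 4), IPC-like cells (158 and 237), excitatory neuron-like cells (517 and 774), interneuron-like cells of the medial ganglionic eminence or MGE (54 and 101), Cajal-Retzius-like cells (16 and 24), hem or choroid plexus-like cells (34 and 20) and meningeal fibroblast-like cells (18 and 30). In each library these classes had UMIs of 7 or more markers of their own list. Since clusters were named by these lists, this is no separate check of the names or the tissue label. GABAergic markers summed to 4.07 and 8.81 CPM in excitatory neuron-like cells, against 3457 and 3435 CPM in MGE interneuron-like cells. Striatal projection neuron-like cells (1 and 68 cells) and interneuron-like cells of the caudal ganglionic eminence or CGE (5 and 30) came mostly from replicate 4 and an MGE interneuron-like sub-cluster of 19 cells came from replicate 4 alone. MGE interneuron-like cells were also less deep in replicate 4 (median 11866 UMIs, against 23450.5 in replicate 2). Levels are given as CPM (UMIs per 1000000 UMIs of the class) in replicate 2 and then replicate 4. They compare a gene between classes and are not set per transcript length, so they do not rank one gene against another. Fewer transcripts per cell and fewer transcribing cells cannot be told apart in a class sum.

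All 6 genes were detected, with 144444 UMIs of Robo2, 58537 of Robo1, 18610 of Slit2, 11775 of Slit3, 4207 of Slit1 and 109 of Robo3 in retained cells. Slit2 was higher in RGC-like than in excitatory neuron-like cells and Robo1 and Robo2 the reverse, while Slit1 and Slit3 shared the excitatory neuron-like class with both receptors (the plot of CPM by class and library). The largest share of Slit2 UMIs lay in RGC-like cells, which held 44.0% of them in replicate 2 and 48.7% in replicate 4 while being 22.9% and 25.7% of the cells. By contrast, excitatory neuron-like cells, 43.1% and 40.2% of the cells, held 87.4% and 71.5% of Robo1 UMIs, 78.5% and 66.4% of Robo2 UMIs, 79.9% and 77.8% of Slit3 UMIs, and 69.6% and 64.3% of Slit1 UMIs. The exact 95% intervals of these shares reached 2.15 percentage points to either side and, like all intervals here, cover counting error only.

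**Figure D1:**
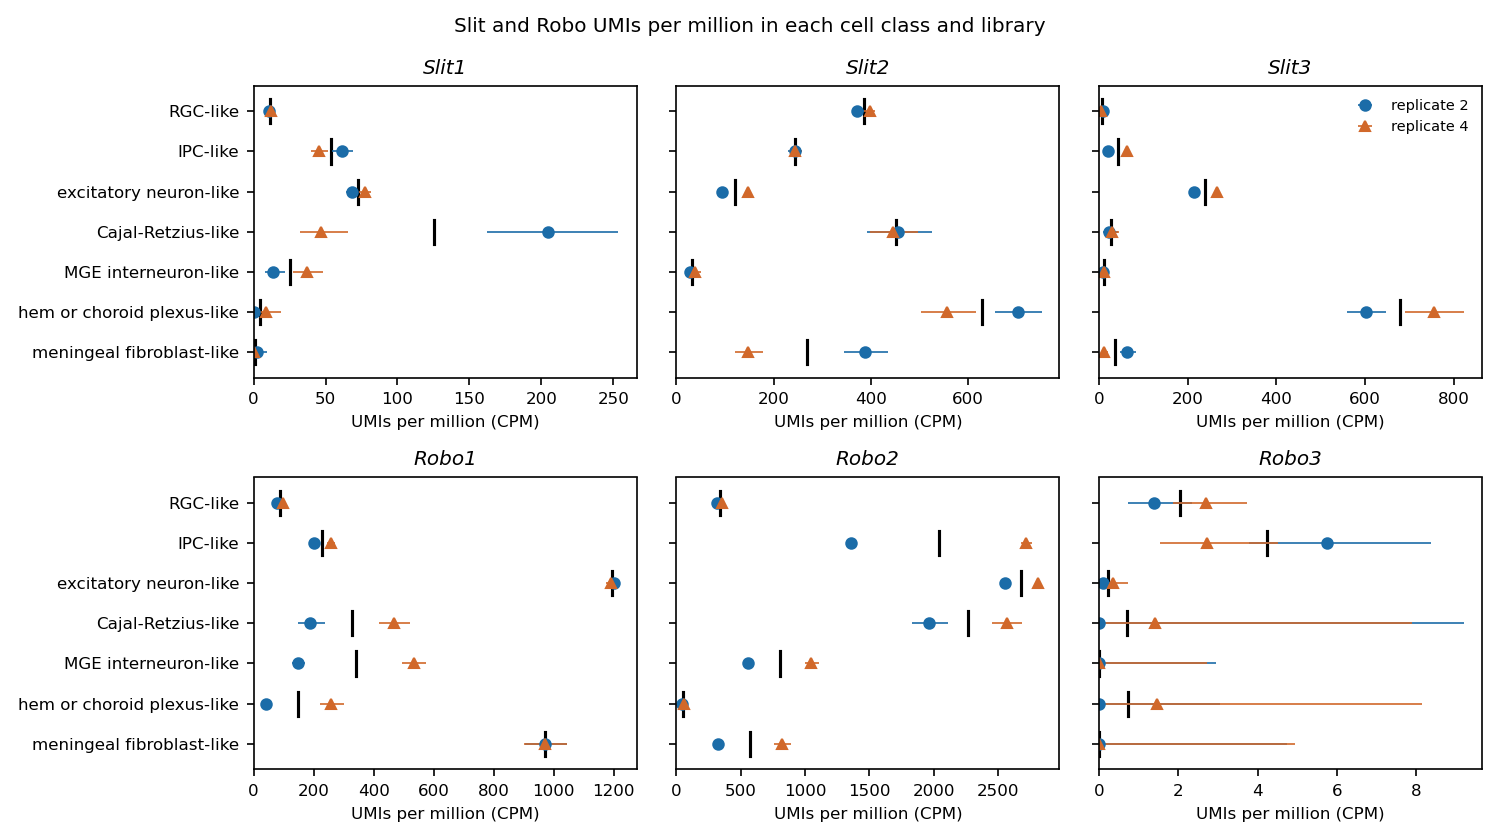
CPM (UMIs per 1000000 UMIs of a class, horizontal axis, linear and starting at 0) of each Slit and Robo gene in 7 cell classes, with 1 point per library and exact Poisson 95% intervals. Slit2 was at 373 and 398 CPM in RGC-like cells and at 27.3 and 38.3 CPM in MGE interneuron-like cells, whereas Robo1 was at 1201 and 1189 CPM in excitatory neuron-like cells and at 77.9 and 96.9 CPM in RGC-like cells.

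Slit2, a secreted ligand that repels axons and neurons, was at 703 and 557 CPM in hem or choroid plexus-like cells, 456 and 446 in Cajal-Retzius-like cells, and 373 and 398 in RGC-like cells. It stood at 243 and 245 CPM in IPC-like cells, 93.6 and 148 in excitatory neuron-like cells, and 27.3 and 38.3 in MGE interneuron-like cells. Along this order the library ranges of neighbouring classes did not overlap except where meningeal fibroblast-like cells (389 and 148 CPM) overlapped the RGC-like, the IPC-like and the neuronal range. In cells thinned to 5000 UMIs each, Slit2 was found in 51.9% and 56.9% of RGC-like cells (70.4% and 72.5% unthinned) and in 13.2% of MGE interneuron-like cells of either library (22.2% and 17.8% unthinned). Each member had 0 to 2 UMIs in the 57 and 66 barcodes led by hemoglobin, at median totals of 865 and 6737 UMIs. Of the UMIs of these barcodes only 22556 of 302282 and 49170 of 640308 were not of hemoglobin genes, and 1 Slit2 UMI in each library made 44.3 and 20.3 CPM of them, below the 133 and 61.0 CPM that 3 UMIs would make. The low Slit2 level of MGE interneuron-like cells therefore cannot be told apart from free RNA, and for any class the part of free RNA was not tested.

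RGC-like cells were not uniform in Slit2. Cluster 8, with Aldoc, Ltbp1 and Tnc among its leading genes, had 1193 and 1094 CPM, while the other RGC-like clusters had between 187 and 365 CPM. Cluster 8 made up 11.3% and 15.6% of RGC-like cells and held 34.4% and 37.0% of their Slit2 UMIs. Both dividing clusters, with Top2a and Mki67 among their leading genes, were at 225 and 240 CPM (cluster 6) and 365 and 282 CPM (cluster 7). Cluster 8 thus lay above the other RGC-like clusters in both libraries.

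Slit3, a further secreted ligand of the family, was high in hem or choroid plexus-like cells (602 and 755 CPM) and in excitatory neuron-like cells (215 and 265 CPM), where it was concentrated in 1 cluster. Within excitatory neuron-like cells, cluster 9, 8.9% and 13.0% of the class, held 2839 of 3961 Slit3 UMIs in replicate 2 and 3230 of 5304 in replicate 4. Its level was 1223 and 1204 CPM, against at most 295 CPM in any other excitatory neuron-like cluster. Among IPC-like cells (21.3 and 62.6 CPM) the ligand was also narrow, as cluster 21 held all 100 Slit3 UMIs of the class in replicate 2 and 334 of 344 in replicate 4. The names of IPC-like clusters 21 and 11 are less sure than that of cluster 0, in which all 8 IPC markers were raised. In cluster 21, 6 of 8 were raised and Eomes led its genes (364 and 511 CPM), and in cluster 11, 7 of 8 were raised (Eomes 461 and 672 CPM), yet Unc5d, Slc17a6 and Neurod1, which are also genes of young neurons, were among the leading genes of both, and Nhlh2 and Synpr among those of cluster 21. RGC-like cells were at 9.96 and 4.99 CPM and MGE interneuron-like cells at 8.03 and 12.5 CPM, ranges that overlapped, and Cajal-Retzius-like cells at 22.4 and 29.7 CPM lay above both. These low levels, too, lay below the 133 and 61.0 CPM that 3 UMIs of hemoglobin-led barcodes would make. They cannot be told apart from free RNA, so Slit3 folds against RGC-like cells are of unsure size. After thinning, 80.0% and 83.3% of hem or choroid plexus-like cells had Slit3 UMIs (79.4% and 85.0% unthinned), against 3.4% and 0.9% of RGC-like cells (8.4% and 4.8% unthinned) at median depths of 30674.5 and 28195 against 32506.5 and 25746 UMIs. Striatal projection neuron-like cells of replicate 4 had 489 CPM of Slit3, all of it in 1 of 2 sub-clusters, that of 33 cells with Six3 and Drd2 among its leading genes (965 CPM). The other sub-cluster had 0 Slit3 UMIs in either library.

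Slit1, a ligand known mostly from the nervous system, was sparse here, with 68.0 and 77.4 CPM in excitatory neuron-like cells, 61.7 and 45.7 in IPC-like cells, and 10.9 and 12.2 in RGC-like cells. Those 3 classes did not overlap, while Cajal-Retzius-like cells, with 204 CPM in replicate 2 and 46.7 in replicate 4, overlapped excitatory neuron-like and IPC-like cells. MGE interneuron-like cells had 13.6 and 36.8 CPM. Small classes were also high, with 337 and 157 CPM in 5 and 30 CGE interneuron-like cells and 89.6 and 289 CPM in 6 and 40 dividing GABAergic precursor-like cells. In the IPC-like class, cluster 0, the one with the most Eomes (625 and 909 CPM), held 265 of 290 Slit1 UMIs in replicate 2 and 218 of 251 in replicate 4. Its level of 105 and 103 CPM lay between clusters without much Slit1 (0.5 and 0.6 CPM in cluster 3, an Eomes-retaining excitatory neuron-like cluster) and the highest excitatory neuron-like cluster, 16, at 175 and 199 CPM. Slit1 and Slit3 thus lay in different IPC-like clusters in both libraries, as the plot of levels along the excitatory lineage shows. Slit2 was more even in that class, with 183 and 175 CPM in cluster 0, 189 and 203 in cluster 11 and 453 and 399 in cluster 21.

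**Figure D2:**
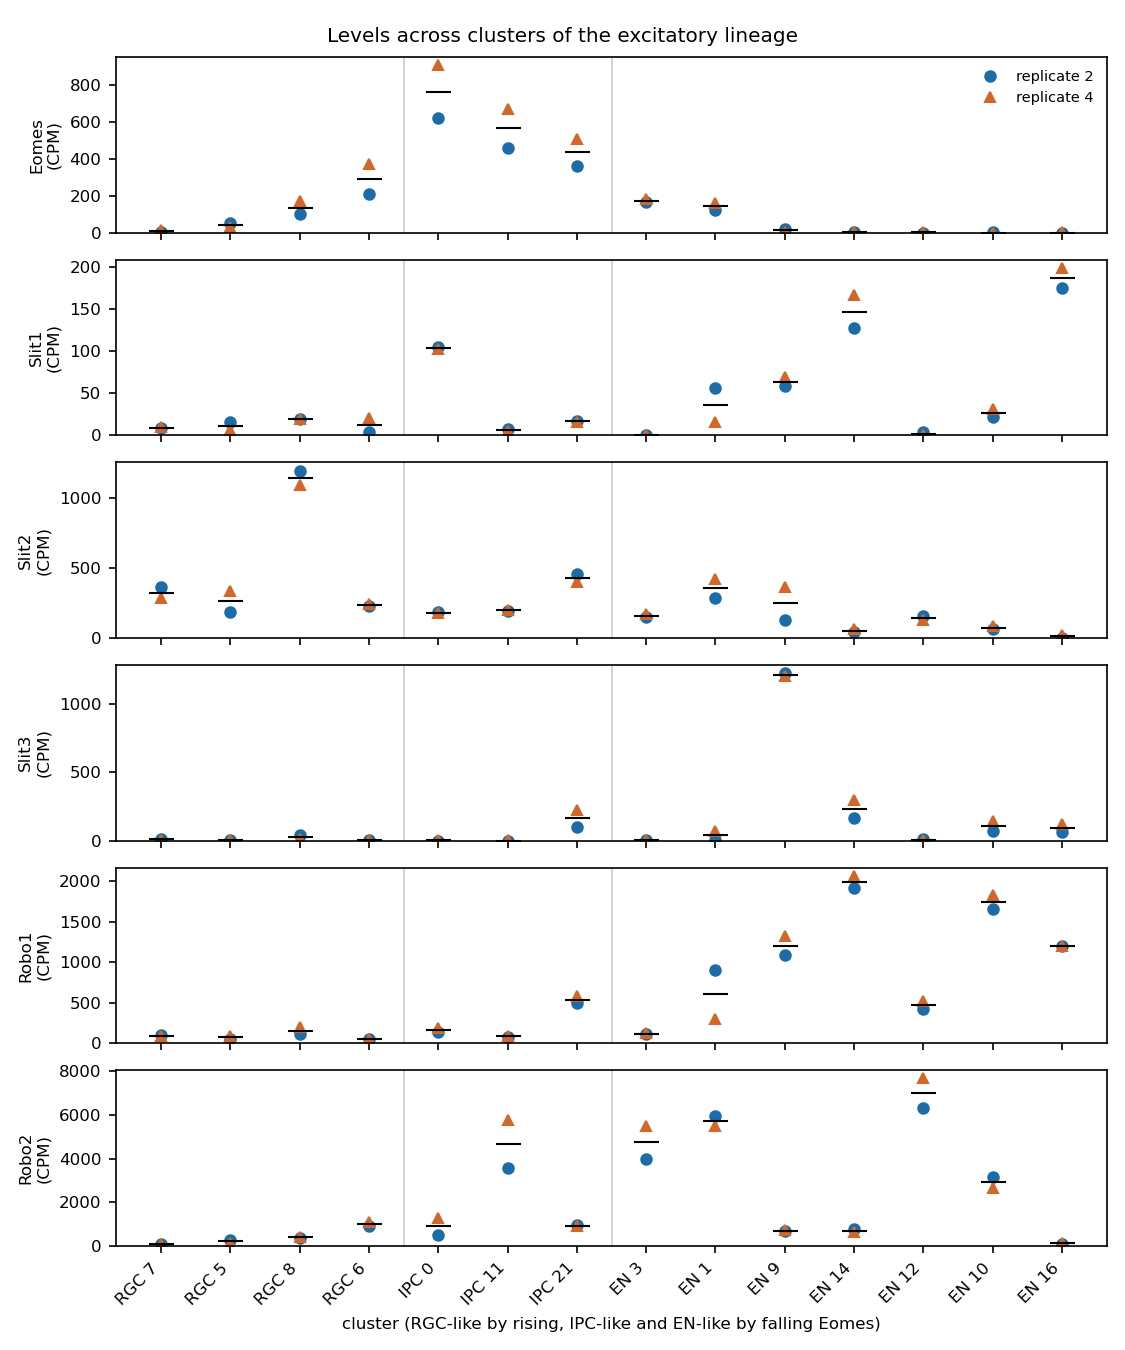
CPM of Eomes and of 5 Slit and Robo genes in the 14 clusters of the excitatory lineage, 1 panel per gene with axes from 0, points for the libraries and a bar for their mean. RGC-like clusters are ordered by rising Eomes and IPC-like and excitatory neuron-like (EN) clusters by falling Eomes, and Slit2 was highest in RGC cluster 8 (1193 and 1094 CPM), Slit1 in EN cluster 16 (175 and 199), Slit3 in EN cluster 9 (1223 and 1204) and Robo2 in EN cluster 12 (6338 and 7675).

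Robo1, a receptor of both axons and progenitors, was at 1201 and 1189 CPM in excitatory neuron-like cells and at 971 CPM in meningeal fibroblast-like cells of either library. Lower levels were found in IPC-like cells (200 and 259 CPM) and RGC-like cells (77.9 and 96.9 CPM). Cajal-Retzius-like cells (189 and 467 CPM) and hem or choroid plexus-like cells (39.6 and 259 CPM) spread widely, so that of the 7 classes only the 2 highest stood clear of the rest. After thinning, Robo1 was found in 67.6% and 65.6% of excitatory neuron-like cells (80.3% and 74.3% unthinned) and in 22.0% and 25.6% of RGC-like cells (42.0% and 40.4% unthinned). In MGE interneuron-like cells Robo1 differed between the libraries, with 148 CPM in replicate 2 and 534 in replicate 4. Of the 725 Robo1 UMIs of that class in replicate 4, 508 lay in the sub-cluster of 19 cells found there alone, at 1970 CPM. Both MGE interneuron-like sub-clusters present in each library had 126 to 230 CPM. CGE interneuron-like cells (2262 and 2007 CPM) and striatal projection neuron-like cells (1576 CPM in the 1 cell of replicate 2 and 3234 in replicate 4) were the GABAergic cells with the most Robo1, and the latter could not be tested against MGE interneuron-like cells for want of cells in replicate 2.

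Robo2, the receptor with the most UMIs in these libraries, was at 2551 and 2812 CPM in excitatory neuron-like cells, 1966 and 2568 in Cajal-Retzius-like cells, and 1357 and 2719 in IPC-like cells. These 3 ranges overlapped. MGE interneuron-like cells had 556 and 1050 CPM, RGC-like cells 317 and 355, and hem or choroid plexus-like cells 42.9 and 61.4. Meningeal fibroblast-like cells (322 and 820 CPM) overlapped the MGE interneuron-like and RGC-like ranges. Among the classes given here, hem or choroid plexus-like cells lay below all others. After thinning, Robo2 was found in 64.1% and 72.6% of IPC-like cells (76.6% and 83.1% unthinned) and in 38.6% and 34.5% of RGC-like cells (52.6% and 52.3% unthinned). Most of the IPC-like signal lay in cluster 11, 27.2% and 38.8% of the class, which held 4094 of 6375 Robo2 UMIs in replicate 2 and 10908 of 14940 in replicate 4. Its level was 3581 and 5752 CPM, against 514 to 1280 CPM in clusters 0 and 21. In RGC-like cells the dividing cluster with Eomes (cluster 6, Eomes 210 and 374 CPM) had 895 and 1110 CPM of Robo2, against 61.9 and 87.9 CPM in the dividing cluster almost without Eomes (cluster 7, Eomes 2.0 and 11.7 CPM). Cluster 6, 21.9% and 22.6% of RGC-like cells, held 52.8% and 62.5% of their Robo2 UMIs, so that most of the Robo2 UMIs of the class came from the dividing cluster with Eomes.

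Robo1 and Robo2 were weighted differently between clusters of the excitatory lineage. A share of Robo2 in the summed Robo1 and Robo2 UMIs compares this mix between clusters, whatever the capture of either transcript. It was 39.1% and 48.8% in RGC-like cluster 7, 94.0% and 95.6% in RGC-like cluster 6, and 97.8% and 98.4% in IPC-like cluster 11. The remaining RGC-like and IPC-like clusters lay between these, with 83.4% and 62.9% in RGC-like cluster 5, 76.6% and 68.2% in RGC-like cluster 8, 79.3% and 87.4% in IPC-like cluster 0 and 66.0% and 60.7% in IPC-like cluster 21. Among excitatory neuron-like clusters it stayed at 97.2% and 97.9% in cluster 3, which retained Eomes, and at 93.7% in cluster 12 of either library. Cluster 1, which also retained Eomes, differed between the libraries, with 86.8% and 94.8%. The share was 65.7% and 59.1% in cluster 10, 38.3% and 34.9% in cluster 9, 28.3% and 23.0% in cluster 14, and 7.7% and 9.9% in cluster 16. Clusters 16 and 14 were the ones with the most Fezf2, a gene of deep-layer neurons (295 and 236 CPM, and 237 and 259 CPM). The exact 95% intervals in these 14 clusters reached at most 4.0 points to either side, and both libraries gave the order 3, 12, 10, 9, 14 and 16.

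**Figure D3:**
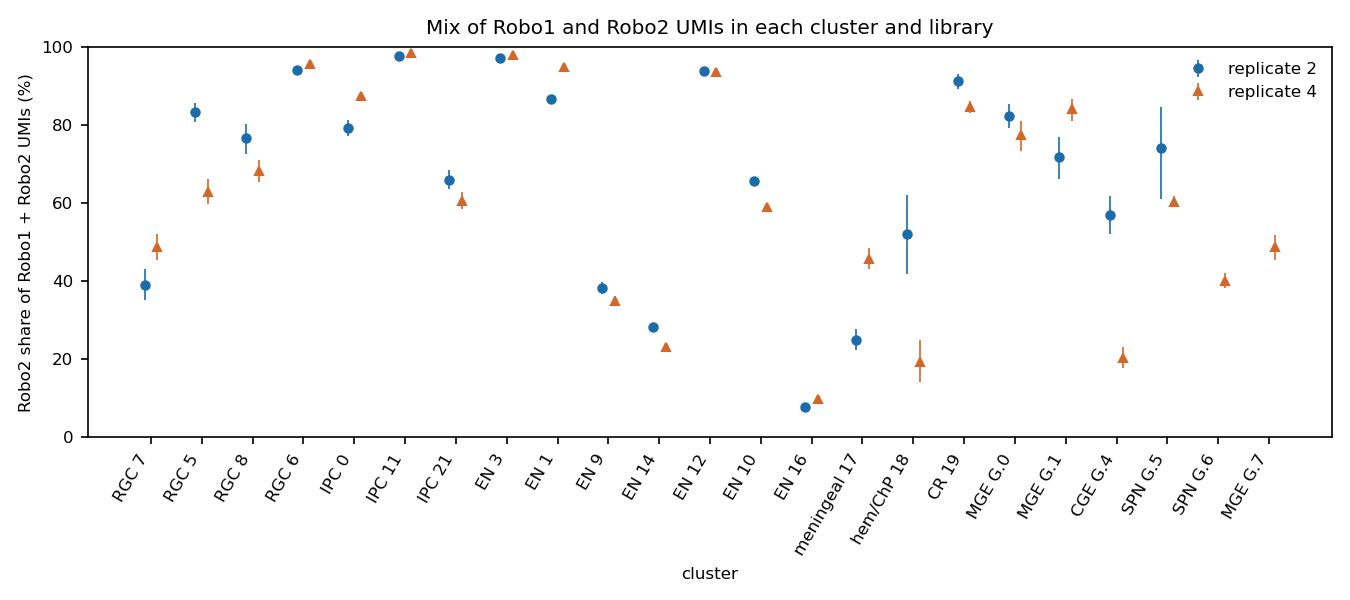
Share of Robo2 in the summed Robo1 and Robo2 UMIs (%, vertical axis from 0 to 100) in clusters of the excitatory lineage and of MGE, CGE, striatal projection neuron-like, Cajal-Retzius-like, hem or choroid plexus-like and meningeal fibroblast-like cells, where a library had at least 20 such UMIs, 1 point per library with its exact Clopper-Pearson 95% interval. Labels give the class and cluster number, with G for GABAergic sub-clusters, and within the excitatory lineage the share ran from 97.8% and 98.4% in IPC cluster 11 to 7.7% and 9.9% in EN cluster 16.

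Within the excitatory lineage, cells with both receptors were most common among excitatory neuron-like cells. After thinning to 5000 UMIs, 44.5% and 42.0% of them had UMIs of both Robo1 and Robo2, against 22.2% and 17.9% of IPC-like and 8.0% and 8.8% of RGC-like cells. Outside that lineage the share was about as high or higher in meningeal fibroblast-like (44.4% and 53.6%) and CGE interneuron-like cells (80.0% of 5 and 50% of 30). GABAergic cells left without a sub-class name had 43.8% of 16 and 57.1% of 7. Striatal projection neuron-like cells of replicate 4 had 64.6% of 65. Cajal-Retzius-like cells had 46.2% and 33.3%, and so were as high in replicate 2 only. Neither receptor was found in 47.3% and 48.7% of RGC-like and in 80.0% and 77.8% of hem or choroid plexus-like cells. A Slit without a Robo was seen in 76.7% and 77.8% of hem or choroid plexus-like cells and in 29.2% and 30.2% of RGC-like cells. A transcript is often missed at 5000 UMIs and free RNA can add one, so these shares do not bound the cells that express a gene. Unthinned, both receptors were found in 60.3% and 53.4% of excitatory neuron-like, 42.4% and 32.1% of IPC-like and 23.7% and 22.2% of RGC-like cells. Neither was then found in 29.2% and 29.5% of RGC-like and in 55.9% and 75.0% of hem or choroid plexus-like cells, and a Slit without a Robo in 22.6% and 21.8% and in 52.9% and 70.0% of them. A Slit together with a Robo was seen, unthinned, in 73.3% and 72.5% of excitatory neuron-like, 67.7% and 70.5% of IPC-like and 52.2% and 53.7% of RGC-like cells, and after thinning in 40.4% and 50%, 37.9% and 44.9%, and 25% and 29.5% of them.

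Robo3 was near the limit of detection, with 109 UMIs in 3122 cells. IPC-like cells had 5.75 and 2.73 CPM, RGC-like cells 1.38 and 2.69, and excitatory neuron-like cells 0.11 and 0.35. In IPC-like cells all 27 UMIs of replicate 2 and 10 of 15 in replicate 4 lay in cluster 21, a cluster of less sure name that also held the Slit3 of the class. MGE interneuron-like cells had no Robo3 UMI in either library, which allows up to 2.41 and 2.21 CPM. The gene was too sparse for the filter of the fit and was not tested there.

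Class levels were next compared with edgeR's quasi-likelihood test on the sums of both libraries, with Benjamini-Hochberg adjustment over 12952 genes. Genes with an adjusted p below 0.05 were called, and 5 of the 6 family members entered. The 7 classes shared 1 fit, so these p-values measure a spread between 2 libraries that is pooled over all 7 classes. The labels do not place the libraries in separate animals. Fits of the compared classes alone gave other values, as for Robo1 in IPC-like against RGC-like cells (edgeR adjusted p = 0.000677, against 0.107). Since cell classes of one tissue differ in many genes, each count of members called is set beside the share of all genes called. All 6 contrasts draw on the same class sums, so contrasts with a class in common are not independent. Genes longer than 100 kb, as Robo1, Robo2 and the Slits are, took 26.3% and 27.0% of all UMIs in RGC-like, 28.5% and 31.1% in IPC-like, 35.1% and 37.4% in excitatory neuron-like, 41.1% and 43.3% in MGE interneuron-like and 22.2% and 24.1% in hem or choroid plexus-like cells. This share rose with the receptor levels from RGC-like to excitatory neuron-like cells and was, of these classes, highest in MGE interneuron-like cells, where both receptors were lower than in excitatory neuron-like cells, and its part in the differences was not tested.

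With excitatory neuron-like cells as the reference for MGE interneuron-like cells, which asks how immigrant and locally made neurons differ, 21.7% of all genes were called, and 3 of 5 members were called, all lower. The median log2 fold change of the members was -1.92 and that of all genes -0.11. Slit3 was 25.1-fold lower (log2 fold change -4.65, SE 0.67, edgeR adjusted p = 0.000392), with 8.03 and 12.5 CPM against 215 and 265. The lower levels of Slit3 and of Slit2 cannot be told apart from free RNA, so the size of either fold is unsure. Slit2 was 3.97-fold lower (-1.99, SE 0.39, edgeR adjusted p = 0.00333) and Robo2 3.61-fold lower (-1.85, SE 0.45, edgeR adjusted p = 0.0119). The Robo2 call was lost with at most 5% mitochondrial UMIs (-1.92, edgeR adjusted p = 0.0503), with doublets kept (-1.55, 0.052) and at Leiden resolution 0.5 (-1.91, 0.0692), at similar fold changes, and was kept under the other 10 of 13 alternatives (from 8.15e-19). Robo1 gave -1.92 (SE 0.69, edgeR adjusted p = 0.0696), and passed the test with the library as a block (-2.15, edgeR adjusted p = 0.0112) and without the sub-cluster of replicate 4 alone (-2.90, edgeR adjusted p = 0.00456). Over 13 alternatives its adjusted p ran from 3.18e-19 to 0.0835, and 11 of them gave a call. Slit1 gave -1.62 (SE 0.57, edgeR adjusted p = 0.0641), lower in each of 13 alternatives and called in 8 of them (adjusted p from 9.15e-11 to 0.204). Markers of excitatory neurons summed to 1596 and 1445 CPM in MGE interneuron-like cells, with UMIs of 8 and 9 of 11 genes and with Fezf2 and Bhlhe22 at 0 in both libraries, against 9675 and 10367 CPM in excitatory neuron-like cells, and their part in these values was not tested.

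The interneurons taken by the study as senders of signals were also set against RGC-like cells, its receivers. Here 51.9% of all genes were called, and 3 of 5 members. Slit2 was 10.4-fold lower in MGE interneuron-like cells (-3.38, SE 0.40, edgeR adjusted p = 2.48e-05), where the lower level cannot be told apart from free RNA. Robo1 was 4.39-fold higher (2.14, SE 0.70, edgeR adjusted p = 0.0225), a call that ended without the sub-cluster of replicate 4 alone (1.15, edgeR adjusted p = 0.117), with at most 5% mitochondrial UMIs (1.20, edgeR adjusted p = 0.0978) and at Leiden resolution 2 (1.11, edgeR adjusted p = 0.126). The other 10 of 13 alternatives gave a call. Robo2 was 2.69-fold higher (1.43, SE 0.45, edgeR adjusted p = 0.0186), and its call was lost at Leiden resolution 0.5 at about the same fold change (1.47, edgeR adjusted p = 0.0833) and kept in 12 of 13 alternatives, down to 1.67e-09. Without replicate 4 the Robo1 value was 1.09, with no test. Slit1 (1.31, edgeR adjusted p = 0.1) was called in 2 of 13 alternatives (adjusted p from 5.45e-05 to 0.532). Slit3 (0.67, edgeR adjusted p = 0.521) was called in none of 13 and had either sign.

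At the step from RGC-like to IPC-like cells, 36.0% of all genes were called and 3 of 5 members, each higher in IPC-like cells. The median log2 fold change was 2.32 over the members and 0.03 over all genes. Robo2 rose 6.61-fold (2.73, SE 0.47, edgeR adjusted p = 0.000756), with most of its UMIs in IPC-like cluster 11, of less sure name, on the one side and in the Eomes-bearing RGC-like cluster 6 on the other. Slit3 rose 6.28-fold (2.65, SE 0.55, edgeR adjusted p = 0.00254), which rested on cluster 21, whose IPC-like name is less sure (0 and 10 Slit3 UMIs lay in the other IPC-like clusters), and the call was lost with doublets kept (0.61, edgeR adjusted p = 0.482) and at Leiden resolution 0.5 (0.84, edgeR adjusted p = 0.225), with 10 of 12 alternatives giving a call (from 2.41e-29). With doublets kept the IPC-like class grew to 261 and 463 cells. The libraries differed in size, with a Slit3 value of 1.17 in replicate 2 alone and 3.68 in replicate 4 alone. Slit1 rose 5.0-fold (2.32, SE 0.51, edgeR adjusted p = 0.00392), and lost its call with cells of at least 500 genes (0.91, edgeR adjusted p = 0.159), the highest of 12 alternatives, of which 11 gave a call (from 7.15e-23). Robo1 gave 1.51 (SE 0.68, edgeR adjusted p = 0.107), and passed the test with the library as a block (1.5, edgeR adjusted p = 0.0355), one of 6 alternatives of 12 that gave a call (adjusted p from 6.35e-11 to 0.478). Slit2 gave -0.54 (SE 0.34, edgeR adjusted p = 0.239), so its lower level in IPC-like cells did not pass the test, though it was called without the low-count filter (-0.56, edgeR adjusted p = 0.0334) and with the compared classes alone (-0.59, edgeR adjusted p = 0.00279), 2 of 12 alternatives.

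From IPC-like to excitatory neuron-like cells, 31.9% of all genes were called and 2 of 5 members, both higher in the neurons. Slit3 rose 6.33-fold (2.66, SE 0.50, edgeR adjusted p = 0.00151) and Robo1 rose 5.82-fold (2.54, SE 0.70, edgeR adjusted p = 0.0153). Both were called in each of 12 alternatives, with values of 2.62 to 3.87 for Slit3 and 2.29 to 3.60 for Robo1, and Slit3 gave 3.48 in replicate 2 alone and 2.23 in replicate 4 alone. Robo2, which had passed the test at the step before, gave 0.55 here (SE 0.44, edgeR adjusted p = 0.382). It was called without the low-count filter (0.61, edgeR adjusted p = 0.0183), the only call in 12 alternatives, and turned to -0.16 with doublets kept. Slit1 gave 0.60 (edgeR adjusted p = 0.367) and was called in 4 of 12 alternatives (adjusted p from 0.00861 to 0.650). Slit2 gave -0.85 (SE 0.34, edgeR adjusted p = 0.0749) and was called in 3 of 12 (0.00111 to 0.151). Robo2 thus passed the test at the first step and Robo1 at the second, while under some alternatives each also passed at the other step. The difference between the steps was not itself tested.

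**Figure D4:**
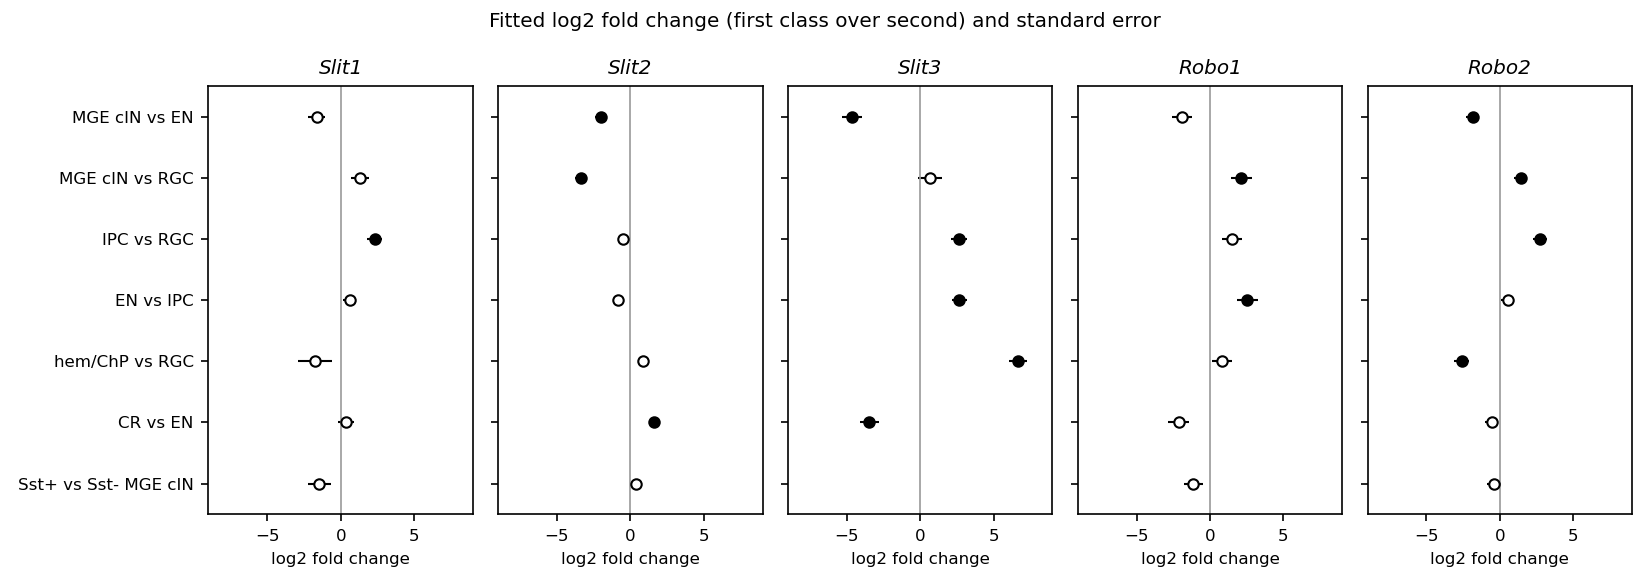
Fitted log2 fold change (first class over second, horizontal axis) of 5 Slit and Robo genes in each contrast, with the standard error as a bar, filled where the edgeR adjusted p-value was under 0.05. Slit3 ranged from -4.65 (MGE interneuron-like over excitatory neuron-like) to 6.64 (hem or choroid plexus-like over RGC-like).

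Hem or choroid plexus-like cells, from the medial edge of the pallium, were compared with RGC-like cells, and 47.9% of all genes and 2 of 5 members were called. Slit3 was 99.7-fold higher (6.64, SE 0.61, edgeR adjusted p = 4.49e-06), with 6.0 in replicate 2 alone and 7.22 in replicate 4 alone. Robo2 was 6.06-fold lower (-2.60, SE 0.51, edgeR adjusted p = 0.00123). That Robo2 call was lost with at most 5% mitochondrial UMIs (-1.30, edgeR adjusted p = 0.144) and with genes scaled within each library (-0.93, edgeR adjusted p = 0.252), and the value turned to 0.34 with cells of at least 500 genes, where the class grew to 48 cells in each library. A call was made in 7 of 10 alternatives (adjusted p from 3.81e-29 to 0.692). Slit2 gave 0.83 (SE 0.34, edgeR adjusted p = 0.0628) and was called in 5 of 10 alternatives (adjusted p from 0.00308 to 0.0949). Robo1 gave 0.82 (SE 0.71, edgeR adjusted p = 0.365, and -0.83 without replicate 4) and was called in opposite directions by 2 of 10 alternatives, at 0.65 without the low-count filter (edgeR adjusted p = 0.0136) and at -2.28 with genes scaled within each library (edgeR adjusted p = 0.00179). Slit1 gave -1.72 (SE 1.16, edgeR adjusted p = 0.242) and was called in 2 of 10 (0.000912 to 0.635).

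Cajal-Retzius-like cells, the Reln-producing neurons of the marginal zone, were set against excitatory neuron-like cells, with 18.4% of all genes and 2 of 5 members called. Slit2 was 3.02-fold higher (1.60, SE 0.35, edgeR adjusted p = 0.00807), a call lost at Leiden resolution 0.5 (0.71, edgeR adjusted p = 0.176) and kept in the other 11 of 12 alternatives (from 1.40e-09). At that resolution the Cajal-Retzius-like class grew to 71 and 70 cells. Slit3 was 11-fold lower (-3.46, SE 0.66, edgeR adjusted p = 0.00353). Robo1 gave -2.13 (SE 0.71, edgeR adjusted p = 0.0561), and -2.31 with an adjusted p of 0.0112 with the library as a block, and 11 of 12 alternatives gave a call (adjusted p from 5.07e-23 to 0.0746). Robo2 gave -0.54 (edgeR adjusted p = 0.453) and was called in 1 of 12 alternatives (-0.71 without the low-count filter, edgeR adjusted p = 0.00628). Slit1 gave 0.36 (edgeR adjusted p = 0.71), was called in none of 12 and turned to -1.01 without replicate 2. Hem or choroid plexus markers summed to 2320 and 1633 CPM in Cajal-Retzius-like cells (8 and 10 of 11 genes, Kcne2 at 0 in both libraries), against 205 and 194 CPM in excitatory neuron-like cells, and their part in the Slit2 value was not tested.

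The study concerns Sst-expressing interneurons, so MGE interneuron-like cells with at least 1 Sst UMI (23 and 34 cells) were compared with those without (31 and 67 cells). Of 7703 genes, 0.0389% were called, namely Npy, Cntn1 and Nebl, named here because they are all there were, and 569 had an unadjusted p under 0.05. The number called ran from 3 to 119 over 13 alternatives and was 77 with the library as a block, where the deviations of both sums of a library correlated at 0.286. None of the 4 members tested was called by edgeR, with or without the library as a block, or by DESeq2, which gave an adjusted p for Robo1 and Robo2 alone. Robo1 was at 146 and 261 CPM in Sst-positive and 149 and 739 CPM in Sst-negative cells, which gave -1.14 (edgeR adjusted p = 0.767), or -0.046 without replicate 4. Of the 725 Robo1 UMIs of the class in replicate 4, 508 lay in the sub-cluster of 19 cells found there alone. Sst and Npy were among the leading genes of that sub-cluster. Over 13 alternatives, 1 of them without it, the Robo1 value ran from -1.27 to -0.020 and was never called. Robo2 was at 706 and 647 CPM against 428 and 1353 CPM (-0.41, edgeR adjusted p = 0.895). Slit1 (-1.45, edgeR adjusted p = 0.747) and Slit2 (0.38, edgeR adjusted p = 0.856) did not pass either. Sst-negative cells of replicate 4 were the shallowest of the 4 sums, with a median of 9500 UMIs, and the part of depth in these values was not tested.

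Partners of the pathway were read from the same fits, as a list of 35 genes of which 34 were tested. It holds co-receptors and other binding partners (such as the heparan sulphate proteoglycans Sdc1 to Sdc4 and Gpc1, dystroglycan Dag1, the Robo3 ligand Nell2 and the Robo1 partner Flrt3) and effectors inside the cell (such as srGAPs, Abl, Ena, Nck and Pak proteins and the Robo target Hes1). In MGE interneuron-like cells, 6 of 34 were called relative to excitatory neuron-like cells (17.6%, 2 higher and 4 lower) and 18 relative to RGC-like cells (52.9%, 10 higher and 8 lower). At the step to IPC-like cells 13 were called (38.2%, 5 higher and 8 lower), and likewise 13 at the step to excitatory neuron-like cells (7 higher and 6 lower). Hem or choroid plexus-like cells gave 14 (41.2%, 5 higher and 9 lower) and Cajal-Retzius-like cells 7 (20.6%, 2 higher and 5 lower). These shares were near those of all genes in each contrast, and in the Sst contrast none of 28 tested was called. Its median log2 fold change stayed between -0.39 and 0.14.

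Among effectors, Srgap1, a GTPase-activating protein that binds the Robo tail, rose at the step to excitatory neuron-like cells, from 45.1 and 57.7 to 318 and 322 CPM (log2 fold change 2.79, edgeR adjusted p = 1.93e-06). It was also higher in MGE interneuron-like than in RGC-like cells (2.76, edgeR adjusted p = 4.51e-07), as was the kinase gene Pak1 (1.92, edgeR adjusted p = 4.79e-06). The adaptor gene Nck1 was higher in MGE interneuron-like than in excitatory neuron-like cells, with 73.9 and 56.7 against 11.3 and 14.9 CPM (2.19, edgeR adjusted p = 0.000183), and Srgap2 likewise (0.91, edgeR adjusted p = 0.00268). Cap2, of the cyclase-associated proteins that bind actin, was lower there, with 3.21 and 0 against 40.0 and 43.8 CPM (edgeR adjusted p = 0.0122). Nck1 was also higher in Cajal-Retzius-like than in excitatory neuron-like cells (1.72, edgeR adjusted p = 0.00408). Hes1, a Notch target that Robo signalling is also known to act on, fell from 96.7 and 72.6 CPM in RGC-like cells to 1.70 and 1.46 CPM in IPC-like cells (-5.61, edgeR adjusted p = 9.17e-06) and was at 0 and 2.94 CPM in MGE interneuron-like cells (edgeR adjusted p = 2.80e-05 against RGC-like cells).

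Among binding partners, Nell2, the ligand gene of Robo3, rose at both steps of the lineage, from 65.3 and 66.3 CPM in RGC-like cells to 126 and 163 in IPC-like (1.26, edgeR adjusted p = 0.0188) and 440 and 461 in excitatory neuron-like cells (1.80, edgeR adjusted p = 0.00267). It was lower in Cajal-Retzius-like than in excitatory neuron-like cells (-4.76, edgeR adjusted p = 0.000104). Flrt3 was lower in MGE interneuron-like than in excitatory neuron-like cells (-2.01, edgeR adjusted p = 0.00165). Of the 4 syndecans, given here in full, Sdc3 rose at the step to IPC-like cells (2.72, edgeR adjusted p = 6.26e-06), whereas Sdc4 (-2.73, edgeR adjusted p = 0.00239), Sdc2 (-1.93, edgeR adjusted p = 0.00481) and Sdc1 (-1.46, edgeR adjusted p = 0.00620) fell. At the next step Sdc2 fell again (-1.84, edgeR adjusted p = 0.0156), as did Sdc4, which had 0 and 0.10 CPM in excitatory neuron-like cells. Sdc3 was lower in Cajal-Retzius-like than in excitatory neuron-like cells (-1.52, edgeR adjusted p = 0.00893), while Gpc1 was higher there, with 94.7 and 49.6 against 24.6 and 23.5 CPM (1.21, edgeR adjusted p = 0.0166). Hem or choroid plexus-like cells had more Sdc4 (2.48, edgeR adjusted p = 0.000693) and Dag1 (1.10, edgeR adjusted p = 5.91e-05) than RGC-like cells, and no Sdc3 UMI in either library. Nell2 was at 0 and 2.93 CPM in hem or choroid plexus-like cells (edgeR adjusted p = 0.000305 against RGC-like cells), and MGE interneuron-like cells had no Sdc4 UMI (edgeR adjusted p = 0.00210 against RGC-like cells).

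Genes with the most similar pattern were found as a description, by Pearson's r of log2(CPM + 10) over 14 sums (7 classes in 2 libraries, which share their depth and the same few class differences). For Robo2 these were Kcnb2 (0.960), Chmp7 (0.958) and Tmsb4x (0.947), and for Robo1 Cacna1e (0.871), Cygb (0.869) and 8030451O07Rik (0.864). Slit1 was nearest to Ptprs (0.935), Slit2 to Pdzd11 (0.950), Slit3 to Eml2 (0.925) and the sparse Robo3 to Cep76 (0.907). Within the family the closest pair was Slit1 with Robo2 (0.767), followed by Robo1 with Robo2 (0.554), and Slit2 with Robo2 gave -0.403.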

How the data were processed

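The authors prepared libraries with the 10x 3′ v3.1 kit and, per the labels, processed the reads with Cell Ranger 7.0.0 on mm10. The deposited tables hold unnormalized UMI counts for each gene and barcode, and whether intronic reads were counted, which would add most to long genes such as Robo1 and Robo2, is not given in the sources used here. Barcodes below 1000 genes or above 10% mitochondrial UMIs were left out, and Scrublet doublets (0.991% and 2.44%) were removed. Cells were clustered in scanpy 1.11.5 (2000 variable genes without the family and pathway genes, 30 components, 20 neighbours, Leiden resolution 1) and named by marker lists, so names may differ from those of the study. Sums per class and library were tested with edgeR 4.0.16 (TMM, filterByExpr), fits that were tested on simulated data. DESeq2 1.42.0 was an alternative. Class sums of the same number came from 1 library, which pairs them. Their deviations correlated with a median of 0.0867 (-0.00699 to 0.293) over 21 pairs of classes. Promoter sequences and coordinates are from RefSeq (GRCm38.p6), with 7 entries for 5 of the 6 genes, and windows sharing 20 bases with an annotated transcript of the gene were not printed. Named were all 6 genes, up to 2 called pathway genes per direction and contrast by fold change, with the same sign in both libraries, and the genes nearest in pattern. The genes and lists were chosen with earlier results of these data known.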

Additional observations from a re-analysis of the deposited data

Results flagged for a closer look

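These values were looked at again because they lie in cells and barcodes that entered no comparison, at more than 3 UMIs in each library. They are means of the CPM of both libraries, and their sources were not tested. A cluster of 66 shallow cells, left without a name for its depth although 6 of 9 RGC markers were raised, had 751 CPM of Slit2, 153 of Robo1 and 124 of Robo2. An unnamed cluster of 89 cells, with hemoglobin and Lgals1 among its leading genes, had 13.4 CPM of Robo2. The GABAergic sub-cluster of 26 cells that received no name (Etv1, Zic1 and Pax6 among its leading genes) had 3317 CPM of Robo2, from 4645 in replicate 2 and 1989 in replicate 4, and 372 CPM of Robo1. Barcodes removed by the filters (513 and 666, median 965 and 1607.5 UMIs) had 56.6 CPM of Slit1, 192 of Slit2, 162 of Slit3, 519 of Robo1, 810 of Robo2 and 2.89 of Robo3.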

How the results depend on the processing

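Over 411 alternative values of the log2 fold changes, 332 kept their direction and side of the threshold, 57 gained a call, 13 lost one and 9 changed sign. The 9 were Slit3 in MGE interneuron-like against RGC-like cells (-0.28 with doublets kept, -0.92 at Leiden resolution 0.5), Robo2 in excitatory neuron-like against IPC-like cells (-0.16 with doublets kept), Robo1 in hem or choroid plexus-like against RGC-like cells (-2.28, edgeR adjusted p = 0.00179, with genes scaled within each library), Robo2 there (0.34 with at least 500 genes), Slit1 in Cajal-Retzius-like against excitatory neuron-like cells (-0.47 at Leiden resolution 0.5, -0.088 with UMIs split between classing and testing) and Slit2 in the Sst contrast (-0.18 with at most 5% mitochondrial UMIs, -0.053 with at least 2 Sst UMIs). The causes were not tested. Genes called moved to 6224 for excitatory neuron-like against IPC-like cells with the compared classes alone and to 4853 for Cajal-Retzius-like cells at Leiden resolution 0.5. In the Sst contrast, from 3, they moved to 20 with DESeq2's Wald test, 119 without the low-count filter, 77 with the library as a replicate block, 15 when cells of 500 genes were admitted, 42 when mitochondrial UMIs were limited to 5%, 21 with doublets kept, 20 and 24 at Leiden resolutions 0.5 and 2, 13 with scaled genes, 31 with split UMIs and 24 without the sub-cluster of replicate 4 alone, chosen after seeing the data. The block changed no member's call besides the 3 of Robo1 given above. DESeq2's size factors centred the median of all genes, which was -0.15 for Cajal-Retzius-like and -0.11 for MGE interneuron-like over excitatory neuron-like cells, and no member changed sign under them. With 1 library left out there is no residual spread and so no test. Besides the values given above, Slit3 in MGE interneuron-like against RGC-like cells turned to -0.14 and Robo2 in the Sst contrast to 0.70 without replicate 4. Hem or choroid plexus-like cells gave no value with doublets kept and at Leiden resolution 0.5, where replicate 4 had 9 cells. Robo3 was called lower in excitatory neuron-like than in IPC-like cells without the low-count filter (-3.84, SE 0.73), with the compared classes alone (-3.99) and with doublets kept (-3.63), and, without the filter, lower in MGE interneuron-like than in RGC-like cells (-6.39, edgeR adjusted p = 0.0322), where 0 UMIs make the fitted fold no bound. Few UMIs limit Robo3, and few cells limit the classes under 50 cells.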
